A study of Homo sapiens with 6 samples.

Results

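In SW620, an established colorectal cancer cell line grown from a lymph node metastasis, both TEAD4 knockdown libraries had lost TEAD4 RNA to a similar degree, yet they differed by at least 2-fold at 881 of the 13234 genes compared (6.66%). The genes compared were those with a mean of at least 20 normalized counts over the 3 SW620 libraries, out of 26336 named genes. A normalized count is the reads on a gene divided by 1 size factor per library, so that libraries of unequal depth can be compared. The SW620 libraries were 1 control that carried the lentiviral hairpin vector pLKO and 2 libraries labelled as TEAD4 knock down (shTEAD4). All were grown in DMEM with serum, and the labels list no other treatment. The same design was used in HCT116, a second colorectal cancer line. The knockdown libraries are numbered 1 and 2 here as in the deposited columns. The labels give them letters instead, with no key between letters and numbers, and do not say whether they stand for different hairpins, separate infections or separate cultures. With 1 library a side, the comparison of library 2 with library 1 is a description of these libraries and carries no test, and p-values are not given for it. A hairpin, a culture and a library preparation cannot be told apart in this design.

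TEAD4, a transcription factor of the TEA domain family, binds DNA but needs a coactivator, YAP (YAP1) or TAZ (WWTR1), to switch genes on, and the Hippo kinases hold these coactivators out of the nucleus. In colon epithelium this pathway is known for its part in regeneration and tumour growth, and cytoskeletal, adhesion and matrix genes are among its textbook targets. The libraries also parted on genes of regulated secretion, the system by which neurons and endocrine cells store peptides and transmitters in vesicles and release them when calcium enters. Many such genes are kept silent outside the nervous system by REST, a repressor that binds a DNA element named RE1.

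The promoters printed next carry a motif of one of these factors and belong to genes on which the libraries parted. They are RefSeq sequences of GRCh38.p14, from 250 bases before to 50 after the gene's start, written 5′ to 3′ on the gene's strand, with the motif in capitals. The motif searched for REST was the canonical RE1 consensus, on both strands and with at most 4 of its 18 fixed letters different, and it was chosen after the values were seen. The motif searched for TEAD factors was GGAATG and its complement CATTCC. The synapsin gene SYN1 (chrX:47619808-47620107, minus strand) holds the RE1 consensus with 0 letters different. The secreted prohormone gene VGF (chr7:101165520-101165819, minus strand) holds it on the other strand with 1 letter different, across its start site.
SYN1: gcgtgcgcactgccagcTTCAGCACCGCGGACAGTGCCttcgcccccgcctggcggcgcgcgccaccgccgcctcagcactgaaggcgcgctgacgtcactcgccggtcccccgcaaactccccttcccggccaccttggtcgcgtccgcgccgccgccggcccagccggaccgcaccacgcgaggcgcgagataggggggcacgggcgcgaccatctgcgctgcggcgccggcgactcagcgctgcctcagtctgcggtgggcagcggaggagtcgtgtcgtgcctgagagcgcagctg
VGF: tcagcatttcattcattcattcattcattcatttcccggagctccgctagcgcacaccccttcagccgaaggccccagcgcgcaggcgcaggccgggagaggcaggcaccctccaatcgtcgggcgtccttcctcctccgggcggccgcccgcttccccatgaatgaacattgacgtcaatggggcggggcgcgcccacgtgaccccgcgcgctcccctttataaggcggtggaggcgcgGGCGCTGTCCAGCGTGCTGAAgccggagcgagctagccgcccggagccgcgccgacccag
YAP1 itself (chr11:102110197-102110496, plus strand) and SDPR (chr2:191847039-191847338, minus strand), which encodes the caveolar coat protein cavin-2 and now carries the symbol CAVIN2, hold the TEAD motif.
YAP1: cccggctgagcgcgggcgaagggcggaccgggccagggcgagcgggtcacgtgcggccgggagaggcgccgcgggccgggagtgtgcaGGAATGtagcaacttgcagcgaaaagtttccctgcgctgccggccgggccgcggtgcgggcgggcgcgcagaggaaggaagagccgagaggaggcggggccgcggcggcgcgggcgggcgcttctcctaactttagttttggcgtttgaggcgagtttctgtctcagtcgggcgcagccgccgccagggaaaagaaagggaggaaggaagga
SDPR: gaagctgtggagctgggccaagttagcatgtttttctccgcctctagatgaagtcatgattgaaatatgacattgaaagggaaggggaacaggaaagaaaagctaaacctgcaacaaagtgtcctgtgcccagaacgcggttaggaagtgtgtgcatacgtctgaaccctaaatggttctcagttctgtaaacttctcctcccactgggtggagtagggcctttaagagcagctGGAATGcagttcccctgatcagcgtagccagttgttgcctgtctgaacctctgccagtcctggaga
RE1 was found within those limits in 210 of 27305 RefSeq promoters of this length (0.769%) and the TEAD motif in 3836 (14.05%). Of the 15 genes with the largest difference towards library 2, 13 had a promoter in the table, VGF and UNC13A held RE1 (UNC13A with 4 letters different), and SPARC held the TEAD motif. Of the 15 with the largest difference towards library 1, 11 had one, and SDPR and C6orf15 held the TEAD motif. The TEAD motif also stands in promoters of other genes higher in library 2, among them SYP, SCG3, DDC and IGFBP5. RE1 with 4 letters different also stands in promoters of HSP90AA1, PHF21A and TUBB2B, which did not part. Their log2 differences between the knockdown libraries were 0.1, 0.28 and 0.61. Promoters were on hand for 69.7% of the genes higher in library 2 and 73.2% of the lower ones, too few for a share over either group, so none is given. A match in these letters is a description of the sequence and does not show that a factor binds there.

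Depth was alike: named genes took 16984496 reads in library 2, 18158268 in the control and 18859715 in library 1, and from 17819 to 18355 genes had a read. The knockdown libraries were not one library deposited again, since a chi-square over their counts came to 32.8 per degree of freedom, where sampling noise alone gives about 1. EPCAM, KRT8, KRT18 and VIL1, which mark colorectal epithelium, were read at 4869.7 normalized counts or more in every SW620 library, while KRT20, LGALS4 and CEACAM5 lay below the minimum mean. A set of 84 genes with at least 200 normalized counts in the HCT116 control and at most 1 in the SW620 control summed to 59053 normalized counts in the former. The same genes summed to 32.2, 98.8 and 130.2 in the SW620 control, library 1 and library 2, at most 0.221% of the HCT116 level, and the control's low sum follows from how the set was chosen. TEAD4 stood at 1140.4 normalized counts in the control, 268 in library 1 and 234 in library 2, or 23.5% and 20.5% of the control. The ratio of library 2 to library 1 was 0.873, with a 95% counting interval of 0.729 to 1.04 that includes 1. All counting intervals here are exact intervals from whole reads and cover counting error only, not the spread between cultures.

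The libraries parted in both directions. Library 2 was at least 2-fold higher than library 1 at 501 genes (3.79% of those compared) and at least 2-fold lower at 380 (2.87%), on the scale log2(normalized count + 1). Of the higher genes 126 reached the minimum mean through 1 library only (the mean of the other 2 was below 20), and of the lower genes 40. Over all genes compared the median log2 difference between them was -0.02. Just inside the threshold stood ACAP1, at 13.8 normalized counts in library 1 and 28.7 in library 2, and ALKBH5, at 1947 and 972. Just outside it stood SARDH, at 214 and 430, and ZFP36L1, at 2045 and 1023. Set against control, library 1 was at least 2-fold higher at 78 genes (0.589%) and lower at 382 (2.89%), and library 2 was higher at 351 (2.65%) and lower at 558 (4.22%). Both of these comparisons use the same control library, so an error in the control enters both.

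Which library lay farther from control differed with the direction. Of the 380 genes lower in library 2, 287 (75.5%) had library 2 as the one farther from control, below it in all 287 cases. This says only which library was farther, since library 1 lay somewhat below control at some of them too, such as CAV1. At 20 (5.26%) it was library 1 that lay farther from control, at 55 (14.5%) control lay between the libraries with each at least 0.5 log2 units away, and at 18 (4.74%) both lay at least 2-fold below control. Of the 501 genes higher in library 2, 204 (40.7%) had library 2 as the one farther from control. At 159 (31.7%) library 1 lay farther from control, below it in all 159 cases, while library 2 lay nearer to it. Control lay between the libraries at 23.2%, and both libraries lay at least 2-fold to the same side of control at 22 (4.39%). The genes also differed in level: the 287 genes at which library 2 lay farther below control had a median of 250.5 normalized counts, and the 159 at which library 1 lay farther below it had one of 48.3. Low levels were not particular to library 1. Among the genes higher in library 2, the 204 with library 2 farther from control had a median of 64.7, and those with control between had one of 47.0.

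**Figure D1:**
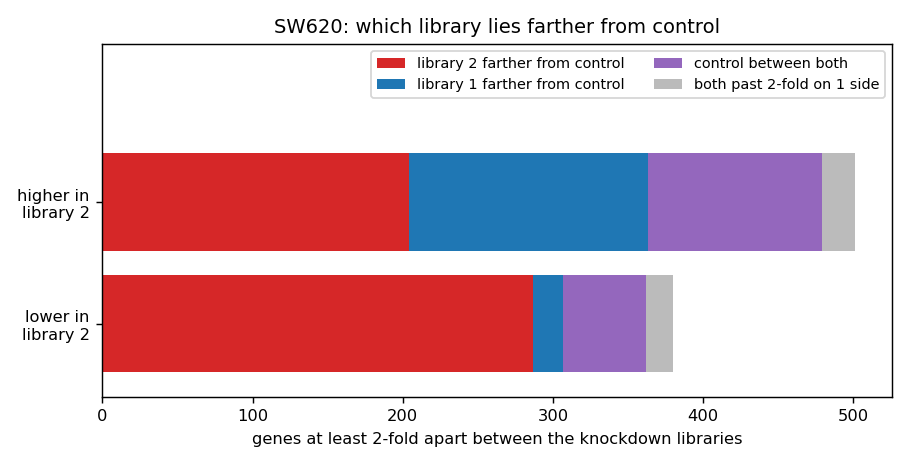
Number of genes (horizontal axis) at least 2-fold higher or lower in SW620 knockdown library 2 than in library 1, coloured by which library lies farther from the control. Library 2 is the one farther from control at 287 of the 380 lower genes but at 204 of the 501 higher genes, where library 1 lies farther at 159.

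The clearest programme higher in library 2 was that of secretory granules and synaptic vesicles. Of 27 neuroendocrine and secretory vesicle genes, 14 were kept, 2 of them through 1 library only. Library 2 was at least 2-fold higher at 6 of the 14 (42.9%) and lower at 0. Over all genes compared the shares were 3.79% higher and 2.87% lower, the background for each list below. Of the 6 genes, library 2 was the one farther from control at 3. At 2 both libraries lay at least 2-fold to 1 side of control, and at 1 control lay between them. The median log2 difference of the kept members was 0.55 between the knockdown libraries, 0.04 for library 1 against control and 0.56 for library 2 against control, while over all genes compared these medians were -0.02, 0.02 and 0.00. In bulk RNA, a few cells with much of an RNA and many cells with a little of it cannot be told apart. A list kept by its mean holds genes that entered because 1 library was high, so its count says less than the values of its members.

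Some granins, the acidic proteins that pack secretory granules, were among these members. CHGB, the most abundant of them, stood at 484 normalized counts in the control, 774 in library 1 and 2747 in library 2, a ratio of library 2 to library 1 of 3.55 (counting interval 3.28 to 3.85). SCG3, which helps sort granins into granules, stood at 23.4, 97.9 and 867.5 in the same order. CHGA stood at 2.93, 1.98 and 79.98, which rests on 3, 2 and 78 reads, so the ratio of 40.5 has a counting interval of 10.8 to 339.99. CHGA was thus near the floor of detection in the control and in library 1, while SCG3 was above control in both knockdown libraries and CHGB lay far higher in library 2 than in the others. VGF, a prohormone of neuroendocrine granules whose promoter with RE1 across the start is printed above, stood at 12.7 in the control, 9.88 in library 1 and 732 in library 2, or 13, 10 and 714 reads. Its ratio of 74.1 (counting interval 40.0 to 155) was the largest among compared genes read in all 3 libraries. DDC, the decarboxylase that makes dopamine and serotonin, stood at 20.5, 35.6 and 451. PCSK1, a convertase that cuts prohormones, had too low a mean to be kept but went the same way, with 3, 4 and 37 reads. Not all such genes rose: SCG2, another granin, had library 2 as its lowest library. Of 18 granin and prohormone processing genes, a list drawn up after the values were seen, 14 were kept, 2 of them through 1 library only. Library 2 was at least 2-fold higher at 5 (35.7%, against 3.79% over all genes compared) and lower at 0. By any amount 10 were higher and 4 lower, with a median of 0.23.

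Genes of the release machinery showed the same order of libraries. UNC13A, which primes vesicles for fusion, stood at 27.3 normalized counts in the control, 40.5 in library 1 and 1085 in library 2, a ratio between the knockdown libraries of 26.8 (counting interval 19.6 to 37.5). CPLX2, a complexin that clamps the fusion complex until calcium arrives, stood at 92.8, 285 and 2485, and its relative CPLX1 at 28.3, 56.3 and 417. SYN1, which ties vesicles to the cytoskeleton and whose promoter holds the full RE1 consensus, stood at 11.7, 10.9 and 131. Library 2 was the high library for each of these genes, and library 1 lay above control for the complexins but beside it for SYN1. RIMS2, a scaffold of the release site, stood at 7.81, 1.98 and 65.6, where library 1 rests on 2 reads and the ratio of 33.2 has a counting interval of 8.82 to 280.02. AP3B2, a neuron-specific subunit of the AP-3 vesicle coat, stood at 14.6, 19.8 and 320 (ratio 16.2, counting interval 10.3 to 26.9). SNAP25, part of the fusion complex itself, was too low to be kept, with 0, 1 and 36 reads. In a list of 51 synaptic vesicle release genes drawn up after the values were seen, 29 were kept, 4 of them through 1 library only. Library 2 was at least 2-fold higher at 11 (37.9%, against 3.79% over all genes compared) and lower at 0, with a median log2 difference of 0.51.

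SYP, synaptophysin of the vesicle membrane, was a member, like SCG3 and CPLX2, at which library 1 too lay at least 2-fold above control. In SYP the levels were 102.5 normalized counts in the control, 389 in library 1 and 1802 in library 2, so that library 1 lay at 3.80 times control and library 2 at 17.6 times. The ratio between the knockdown libraries was 4.63 (counting interval 4.15 to 5.17). Not all vesicle genes followed: SYT1, the calcium sensor of release and the most abundant vesicle gene here, stood at 3310 in the control, 2499.7 in library 1 and 1457 in library 2. SV2A, a vesicle membrane transporter-like protein, stood at 379.8, 385 and 224. Library 2 was thus the lowest library for SYT1 and SV2A, short of 2-fold against library 1. INSM1, a transcription factor of endocrine cells, had 1, 1 and 3 reads, and NEUROD1 had 0 reads in all 3 libraries, and a count of 0 allows up to 3 reads.

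**Figure D2:**
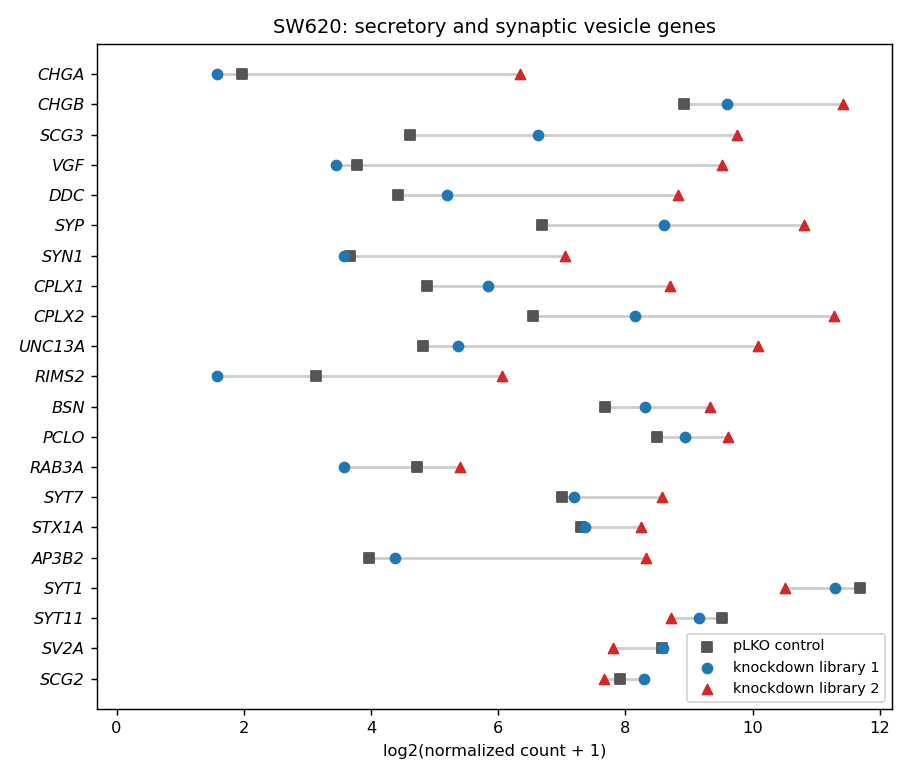
Expression as log2(normalized count + 1) (horizontal axis) of 21 secretory and synaptic vesicle genes, picked to show members on each side, in the SW620 control (square), knockdown library 1 (circle) and knockdown library 2 (triangle). Library 2 is the rightmost point for 17 of them, while SYT1, SYT11, SV2A and SCG2 have library 2 as the leftmost.

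REST, the repressor named above, stood at 1242 normalized counts in the control, 1111 in library 1 and 688 in library 2, a log2 difference between the knockdown libraries of -0.69 that did not reach 2-fold. Of 16 genes for REST and its corepressors, a list drawn up after the values were seen, all were kept and 0 parted, with a median of -0.17. Other genes with large differences towards library 2 were spread over other functions. RAB39A, a small GTPase of membrane traffic, had 0 reads in the control, 2 in library 1 and 101 in library 2, a ratio between the knockdown libraries of 52.4 (counting interval 14.1 to 438.5). Against the floor of 3 reads it was at least 35.4-fold higher in library 2 than in the control. KCNC1, a fast potassium channel of neurons, stood at 2.93, 11.9 and 224 normalized counts, and MAPK8IP2, a scaffold for JNK signalling that is found in neurons, at 12.7, 22.7 and 296. EPHA8, an ephrin receptor, stood at 16.6, 1.98 and 53.3, with library 1 at 2 reads. GALNT9, which starts O-glycan chains on proteins, stood at 6.83, 13.8 and 216, and TM4SF20, a membrane-spanning protein, at 1.95, 1.98 and 60.5. TMEM151A stood at 9.76, 3.95 and 79.98. For each of these 7 genes the control and library 1 lay below library 2, though the control less far for EPHA8. For EPHA8 and TMEM151A control lay between the knockdown libraries, with log2 differences of -2.56 and -1.12 for library 1 against control.

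In the opposite direction, YAP1 and 1 of the 4 TEAD genes, TEAD2, parted, while TEAD4, TEAD1 and TEAD3 did not reach 2-fold. YAP1 stood at 8427 normalized counts in the control, 9567 in library 1 and 2969.6 in library 2, that is 35.2% of control in library 2 and 114% in library 1. TEAD2 stood at 417, 373 and 115.9. TEAD1, the most abundant TEAD factor here, stood at 8497, 8449 and 4490.3, a log2 difference between the knockdown libraries of -0.91. Library 1 lay within 0.18 log2 units of control for all 3 of these genes, and library 2 lay below. WWTR1, which encodes TAZ, stood at 634, 361 and 211, so both knockdown libraries lay below control, and TEAD3 at 267, 241 and 245, where the libraries lay together. Of 24 genes of the Hippo pathway and TEAD family, 20 were kept and library 2 was at least 2-fold lower at 4 (YAP1, TEAD2, AMOTL2 and LATS2) and higher at 0, with a median log2 difference of -0.19.

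YAP and TEAD target genes did not move as a block. Of 23 targets, 18 were kept, with a median log2 difference of 0.05 and a mean of -0.06. Library 2 was at least 2-fold lower at 5 (27.8%, against 2.87% over all genes compared) and higher at 3 (16.7%, against 3.79%). The lower ones were THBS1, a matrix glycoprotein, at 1084 normalized counts in the control, 1139.7 in library 1 and 366 in library 2, the receptor kinase AXL at 595, 475 and 189.7, and AMOTL2, GADD45B and LATS2. The higher ones were NT5E, a surface nucleotidase, at 70.3, 19.8 and 84.1, ASAP1, a regulator of Arf GTPases, at 619, 225 and 554, and IGFBP3, a binding protein for insulin-like growth factors, at 33.2, 33.6 and 111. For NT5E and ASAP1 library 1 was the one away from control. CTGF and CYR61, the best known targets of YAP, differed by 0.24 and 0.10 log2 units between the knockdown libraries. CTGF stood at 84.9, 96.9 and 115 and CYR61 at 63.5, 112 and 119.97, so that neither was below control in a knockdown library.

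**Figure D3:**
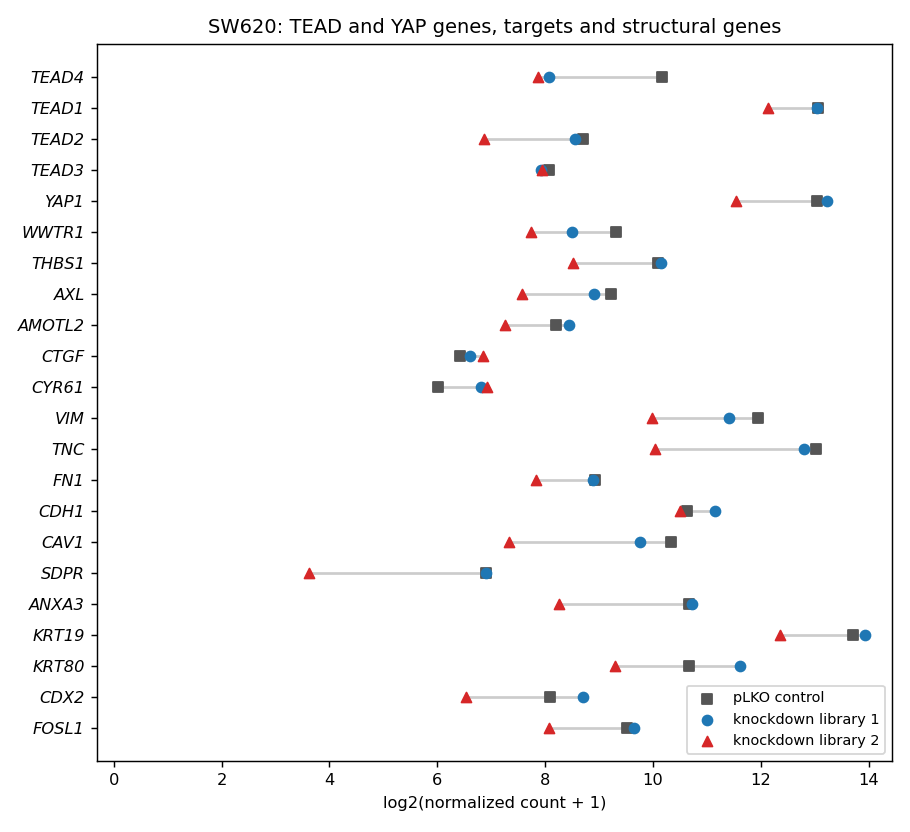
Expression as log2(normalized count + 1) (horizontal axis) of TEAD and YAP genes, some of their targets, and structural and lineage genes in the SW620 control (square), knockdown library 1 (circle) and knockdown library 2 (triangle); the genes were picked to show both patterns. TEAD4 lies low in both knockdown libraries, while YAP1, TEAD2, TNC, SDPR and KRT80 lie near or above control in library 1 and well below it in library 2.

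Several genes of cell shape, membrane and matrix were lower in library 2. VIM, the mesenchymal intermediate filament vimentin, stood at 3942 normalized counts in the control, 2725 in library 1 and 1014 in library 2, or 69.1% and 25.7% of control. TNC, the matrix protein tenascin C, stood at 8325, 7154 and 1048, a ratio of library 1 to library 2 of 6.83 (counting interval 6.39 to 7.30). FN1, fibronectin, stood at 485, 473 and 227. Both knockdown libraries were below control for VIM, whereas TNC and FN1 were low in library 2 alone. Of 20 mesenchymal markers 13 were kept, with a median of -0.18 and a mean of 0.05. Library 2 was at least 2-fold lower at 3 (23.1%, against 2.87% over all genes compared) and higher at 2 (15.4%, against 3.79%). The higher ones were SPARC, which was read 0 times in library 1, and LOX, a collagen crosslinking enzyme. CDH1, the epithelial cadherin, stood at 1587, 2261 and 1452, so library 1 lay above control and library 2 near it.

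Genes of caveolae, the small membrane pits, stood lower in library 2. CAV1, their main structural protein, stood at 1281 normalized counts in the control, 867 in library 1 and 159 in library 2 (ratio of library 1 to library 2 of 5.45, counting interval 4.59 to 6.51). SDPR, whose promoter with the TEAD motif is printed above, stood at 118, 119 and 11.3, or 121, 120 and 11 reads. PRKCDBP, or cavin-3, stood at 1351, 1461 and 546. For SDPR and PRKCDBP library 1 lay level with or above control. Of 11 caveolar genes, a list drawn up after the values were seen, 9 were kept, with a median of -0.90. Library 2 was at least 2-fold lower at 3 (33.3%, against 2.87% over all genes compared) and higher at 0.

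Keratins, the intermediate filaments of epithelia, had the median farthest below control in library 2 among the 49 lists. Of 18, 11 were kept, and 5 were at least 2-fold lower in library 2 (45.5%, against 2.87% over all genes compared) and 0 higher. The median log2 difference was -0.60 between the knockdown libraries, 0.13 for library 1 against control and -1.24 for library 2 against control. Between the knockdown libraries 2 of the 49 lists with at least 6 kept members had a lower median than keratins. They were EGF receptors and ligands (-0.65, 7 kept) and S100 and annexin genes (-0.62, 16 kept). KRT19 stood at 13330 normalized counts in the control, 15529 in library 1 and 5213 in library 2, and KRT80 at 1624, 3137 and 629.6. KRT23 stood at 475, 321 and 149. The simple epithelial pair KRT8 and KRT18, the most abundant keratins, differed less, by -0.49 and -0.40 log2 units. Keratins of stratified epithelia were low throughout, KRT5 at 34.2, 56.3 and 11.3 and KRT15 at 70.3, 61.3 and 14.4. KRT80 and KRT19 lay above control in library 1 and below it in library 2.

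Annexins and S100 proteins, which bind membranes and partners when calcium enters, leaned the same way. Of 19, 16 were kept and 15 of these were lower in library 2 than in library 1, 2 of them by at least 2-fold, with a median of -0.62. ANXA3 stood at 1619.8 normalized counts in the control, 1686 in library 1 and 304 in library 2, and ANXA1 at 95.7, 50.4 and 20.5. Of 26 genes of the actin cytoskeleton and serum response factor, 24 were kept and 2 were at least 2-fold lower in library 2, with a median of -0.45. CNN3, the actin-binding calponin 3, stood at 2537, 3849 and 1334, and FLNA, the actin crosslinker filamin A, stood at 19982, 20816 and 10449, just short of 2-fold. Among 22 integrin and laminin genes 19 were kept, and 15 were lower in library 2. ITGB4 of hemidesmosomes, at 4155, 4367 and 1762, was the only one past 2-fold. That is 5.26%, against 2.87% lower and 6.66% in either direction over all genes compared. For each gene named here except ANXA1, library 1 lay at or above control and library 2 below it.

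**Figure D4:**
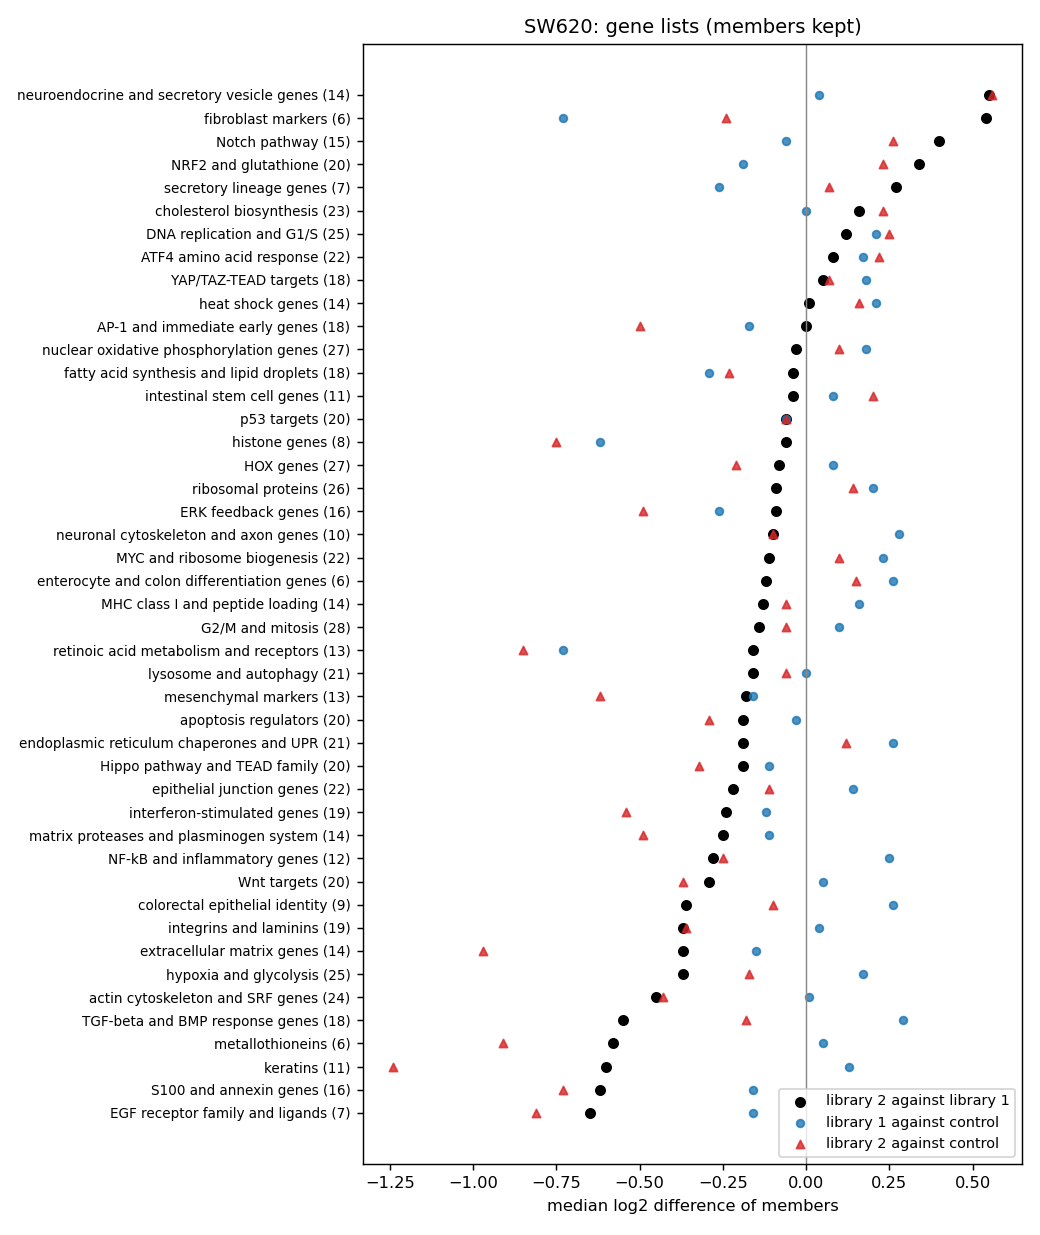
Median log2 difference (horizontal axis) of the members kept, with their number in brackets, for the gene lists with at least 6 kept members in SW620: library 2 against library 1 (black), library 1 against control (blue circle) and library 2 against control (red triangle). Keratins lie at -1.24 in library 2 against control and at 0.13 in library 1, while the neuroendocrine list lies at 0.56 and 0.04.

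Signalling lists did not lean alike. The TGF-beta and BMP list and the Wnt list leaned lower in library 2, while the Notch list leaned higher (median 0.40). Among 22 TGF-beta and BMP response genes 18 were kept, 14 lower and 4 higher in library 2, with a median of -0.55. By at least 2-fold, 3 were lower and 0 higher. Among them were PMEPA1, an inhibitor of TGF-beta signalling, at 539 normalized counts in the control, 665 in library 1 and 226 in library 2, and BAMBI, a decoy receptor, at 2121, 2051 and 772. Among 20 Wnt targets, all kept, 3 were at least 2-fold lower in library 2: APCDD1, a membrane inhibitor of Wnt, at 1572, 2309 and 408, AXIN2, a scaffold that limits the pathway, at 7654, 8029.99 and 3955, and BAMBI again. Of the 20 Wnt targets 15 were lower and 5 higher in library 2, with a median of -0.29. Library 1 was near or above control for PMEPA1, BAMBI, APCDD1 and AXIN2. JAG1, a Notch ligand, stood at 1808, 1797 and 549, while HEYL, a Notch target, stood at 64.4, 21.7 and 100.5 with library 1 as the low one. Of 16 ERK feedback genes, all kept, 3 were at least 2-fold lower in library 2. They were FOSL1, an AP-1 subunit, at 732, 804 and 268, and the ephrin receptors EPHA4 and EPHA2, the latter at 2032, 2447 and 1131.

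Lineage and metabolic genes gave a mixed picture. CDX2, the homeobox factor of intestinal identity, stood at 271 normalized counts in the control, 416 in library 1 and 91.3 in library 2, with control between the knockdown libraries. CLDN1, a tight junction claudin, stood at 1588, 3039 and 936, again with control between them. Control also lay between the libraries for AQP3, a water and glycerol channel, at 532, 897 and 97.4, and PTHLH, the parathyroid hormone-related protein, at 27.3, 105 and 5.13. SLC2A1, the glucose transporter GLUT1, stood at 13680 in the control, 16860 in library 1 and 6269 in library 2. It was 1 of 3 genes lower by at least 2-fold among 25 hypoxia and glycolysis genes, all kept, whose median was -0.37. Metallothioneins, which bind zinc and copper, had 6 of 10 genes kept and 2 at least 2-fold lower in library 2, MT2A at 3757, 3416 and 1229 and MT1E at 488, 798 and 158. Reads of these near-identical genes could be split among them in a way that is not known. NRF2 and glutathione genes leaned towards library 2: 17 of the 20 kept out of 21 were higher in it, with a median of 0.34, though AKR1C1 alone passed 2-fold, at 280.2, 150 and 449. AKR1C1 shares reads with near-identical relatives, and library 1 lay below control for it, with a log2 difference of -0.89. Of the 20 kept, 0 lay at least 2-fold from control in library 1, and 1 did in library 2, below it.

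Some retinoid genes lay below control in both knockdown libraries. DHRS3, which turns retinal back to retinol, stood at 216 normalized counts in the control, 38.5 in library 1 and 18.5 in library 2, and ALDH1A2, which makes retinoic acid, at 90.8, 54.4 and 15.4. NRP2, a co-receptor for semaphorins and vascular growth factors that is in no retinoid list, showed the same order at 834, 389 and 60.5. Of 18 retinoid genes 13 were kept, 4 of them at least 2-fold below control in library 1 and 5 in library 2, with medians of -0.73 for library 1 against control and -0.85 for library 2 against control. Library 2 was at least 2-fold below library 1 at 3 of them and above it at RARB, a retinoic acid receptor, at 43.9, 9.88 and 31.8.

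The remaining genes with the largest differences towards library 1 differed in where library 1 stood. HDAC9, a histone deacetylase, stood at 75.2 normalized counts in the control, 61.3 in library 1 and 3.08 in library 2, the last from 3 reads, and the ratio of library 1 to library 2 of 19.9 has a counting interval of 6.51 to 99.2. CLIC5, which links membranes to the actin cytoskeleton, stood at 152, 119 and 10.3, and C6orf15 at 229, 161 and 16.4. MMP19, a matrix metalloprotease, stood at 103, 82.0 and 9.23. In these 4 genes library 1 lay somewhat below control and library 2 far below both. PLK2, a stress-induced kinase, stood at 387, 555 and 73.8, ARHGDIB at 54.7, 112 and 14.4, and CSMD3, a large membrane protein, at 76.2, 225 and 31.8. DPYSL3, a collapsin response protein of growing axons, stood at 1439, 2008 and 283, and so went against the vesicle genes although it is a neuronal gene too. For these 4 genes library 1 lay above control and library 2 below. LOC101927272 (39.1, 50.4 and 2.05) and JAKMIP2-AS1 (38.1, 61.3 and 6.15) are uncertain, since the library kit keeps no strand and antisense reads cannot be told from those of a gene on the other strand.

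In 8 lists of core cellular functions 0 kept genes parted, though few genes of high level parted at all. Library 2 and library 1 lay less than 2-fold apart at all 28 kept G2/M genes, all 26 ribosomal protein genes, all 27 nuclear oxidative phosphorylation genes, all 21 endoplasmic reticulum chaperone genes and all 23 cholesterol synthesis genes. The same held for all 22 genes of MYC and ribosome biogenesis, 21 of lysosome and autophagy and 14 of MHC class I and peptide loading. The medians of these 8 lists lay between -0.19 (chaperones) and 0.16 (cholesterol synthesis). The background share of genes past 2-fold, 6.66% over all genes compared, falls to between 0.957% and 3.12% in genes with a mean of 300 or more normalized counts. MYC stood at 7037 normalized counts in the control, 6716 in library 1 and 6813 in library 2.

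Genes higher in library 2 were mostly low in abundance, whichever library lay farther from control. Genes of connective tissue with a low level in library 1 were among them. COL1A2, a chain of type I collagen, stood at 43.9 normalized counts in the control, 0 in library 1 and 83.1 in library 2, or 45, 0 and 81 reads. Against the floor of 3 reads library 2 was at least 28.0-fold higher and the control at least 14.8-fold higher than library 1. SPARC, a matrix glycoprotein, stood at 31.2, 0 and 54.3, and FSTL1, a secreted glycoprotein of mesenchyme, at 33.2, 0 and 33.8. COL6A3 stood at 34.2, 4.94 and 48.2, THY1, a surface protein of fibroblasts, at 44.9, 6.92 and 36.9, and MRC2, a collagen receptor, at 98.6, 10.9 and 66.7. Control and library 2 thus lay together for FSTL1, THY1 and MRC2, with library 1 far below both. For COL1A2 and SPARC control lay between the knockdown libraries, and library 2 lay 0.9 and 0.78 log2 units above it. COL3A1, COL5A1 and DCN were also read 0 times in library 1, but with at most 16 reads elsewhere.

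Of 21 connective tissue genes, a list drawn up after the values were seen, 14 were kept, 4 of them through 1 library only. Library 2 was at least 2-fold above library 1 at 9 (64.3%, against 3.79% over all genes compared). It was below library 1 at 1, TIMP3 (7.14%, against 2.87%). Among these parting genes library 1 lay farther from control at 5 and library 2 at 1. Control lay between the libraries at 3, and both lay at least 2-fold to the same side of it at 1. The medians were -2.42 for library 1 against control and -0.42 for library 2 against control, and they are the same with the genes at 0 placed at their bounds. Some such genes lay below control in library 1 by less than 2-fold. COL1A1 stood at 203, 117 and 103 normalized counts, LUM, a matrix proteoglycan, at 715, 489 and 617, and FBLN1, a matrix glycoprotein, at 1406, 817 and 686. Of the 11 fibroblast markers, 2 had 0 reads in the control, 5 in library 1 and 1 in library 2, and their summed level was 1150.2, 691 and 968 normalized counts. Of 15 leukocyte markers 4 were kept and 0 parted, and their summed level was 1063, 1006 and 644, most of it CD4. PTPRC, CD3E and TYROBP among them had 0 reads in all 3 libraries. Of 9 endothelial markers 2 were kept and 0 parted, with a summed level of 166, 77.1 and 96.4, and PECAM1 and CDH5 had 0 reads throughout. Whether RNA from other cells has a part in the levels of connective tissue genes was not tested.

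**Figure D5:**
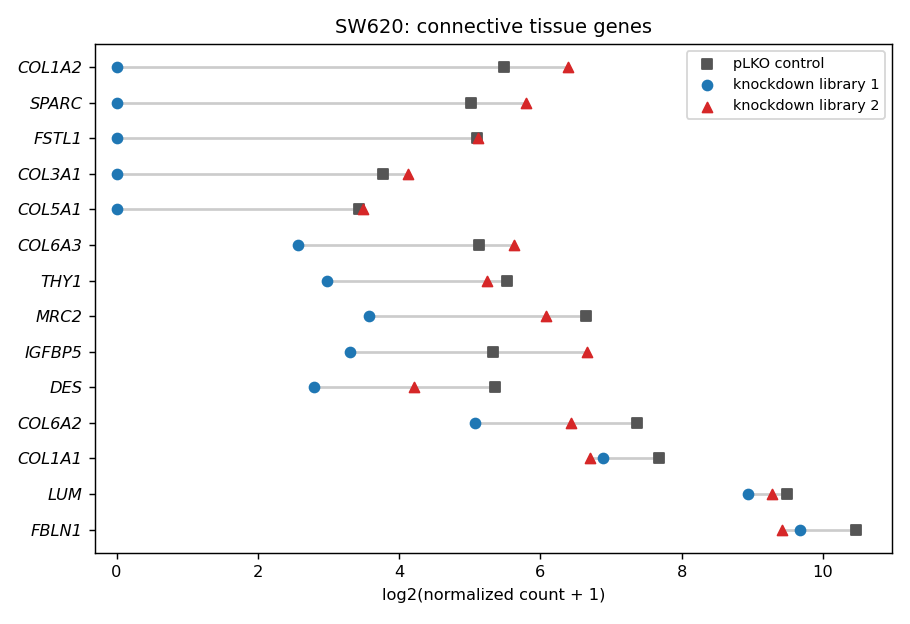
Expression as log2(normalized count + 1) (horizontal axis) of connective tissue genes, picked after the values were seen, in the SW620 control (square), knockdown library 1 (circle) and knockdown library 2 (triangle). Library 1 is at 0 for COL1A2, SPARC, FSTL1, COL3A1 and COL5A1, while for COL1A1, LUM and FBLN1 the 3 libraries lie closer together.

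The tilt of library 1 at low abundance was not confined to these genes. Among the 1323 genes with a mean from 20 to 50 normalized counts, 25% parted, the median log2 difference between the knockdown libraries was 0.27, and library 1 lay at least 2-fold below control at 186 and above it at 40. In the same genes library 2 lay below control at 146 and above it at 150. The median difference was 0.19 at a mean from 50 to 100 and 0.08 from 100 to 300, and from 300 upwards it lay between -0.10 and -0.04. Library 1 against control went the other way, from -0.23 in the lowest band to 0.17 at a mean of 10000 or more, while library 2 stayed within 0.02 of control below 10000. Of the genes that parted, 56.9% were higher in library 2, but with a minimum mean of 100 normalized counts 146 genes were higher and 233 lower, so that 38.5% were higher. The larger number of genes on the higher side thus rests on genes below 100 normalized counts, whereas YAP1, TNC, KRT19 and CHGB, with means far above it, do not depend on that choice. The part of library preparation in this tilt was not tested.

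The HCT116 knockdown libraries of the same numbers share no sample with those of SW620. At the genes that parted in SW620 they leaned in the opposite direction. Of the 501 genes higher in SW620 library 2, 311 had a mean of at least 20 normalized counts in HCT116. There 22 (7.07%) were at least 2-fold higher in library 2 and 70 (22.5%) lower, with a median of -0.28, against 6.77% higher, 10.6% lower and a median of 0.02 over the 11894 genes kept in both lines. Of the 380 genes lower in SW620 library 2, 296 were kept, and 57 (19.3%) were higher and 33 (11.1%) lower, with a median of 0.18. Across the 11894 genes the correlation of the differences was -0.17 (Pearson) and -0.21 (Spearman), a description across genes within a few libraries. The labels do not say that equal numbers mark the same hairpin. Each line has a table with its own normalization, and libraries are compared only within a table.

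Single genes show how far the lines differed. In HCT116, YAP1 stood at 1501 normalized counts in the control, 2733 in library 1 and 2713 in library 2, so that its knockdown libraries lay together above control. TEAD1 stood at 4091, 1944 and 3964, where library 1 was the low one, the reverse of SW620. UNC13A, at 27.3 normalized counts in the SW620 control, stood at 2069.8, 1338 and 2409 in HCT116, and VGF at 1257, 1713 and 3643. VGF was at least 2-fold higher in library 2 in both lines, with log2 differences of 1.09 in HCT116 and 6.07 in SW620. SYP stood at 48.8, 33.7 and 32.2 in HCT116 and CPLX2 at 10.2, 10.9 and 8.58, without the split seen in SW620. CAV1 stood at 1833, 2350.3 and 4121 and KRT80 at 265, 828 and 1352, both with library 2 as the high library, where in SW620 it was the low one. TEAD4 stood at 355, 68.2 and 68.6, a loss as even between the knockdown libraries as in SW620.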

How the data were processed

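RNA was sequenced from 6 libraries, 3 of SW620 and 3 of HCT116; 0 other columns of per-sample values were left unused. Per the labels' protocols, RNA was taken up in Trizol and the TruSeq RNA kit was used. The submitters' processing notes name Bowtie 0.12.2 and hg18. How reads were assigned to genes, and by which annotation, is not given in the sources used here.

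For each line the authors deposited a table of 26364 features with a normalized count per library, here treated as a signal. The deposited values are reads divided by a size factor, since multiplying by it gave whole reads for 100% of values within a tolerance of 1e-06. Per the file headers, the authors' own mean signal, log2 fold changes, test score and p-values are there too; they were not used. Because reads could be recovered, edgeR's quasi-likelihood test was added for SW620 knockdown against control, in a model of 4 groups. It called 0 of 16379 genes (adjusted p under 0.05), with 224 at an unadjusted p under 0.05, and limma also called 0. Date-like names (28 features) were left out, at 0.232% to 0.262% of reads.

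Genes averaging 20 or more normalized counts over the SW620 libraries were compared as log2(normalized count + 1), called at 2-fold. A parting gene was first classed as control between (each library at least 0.5 log2 units away) or as both at least 2-fold to 1 side, and otherwise by the library farther from control. Ratios have exact Clopper-Pearson counting intervals (95%), and a library at 0 was set to a floor of 3 reads. The 49 gene lists (960 symbols, all found) and the genes compared were chosen with earlier results of these data known, and 6 further lists (142 symbols) were added after the values were seen. Genes named are the label's markers, the 15 with the largest difference in each direction, and members of lists (up to 6 where 3 or more part in 1 direction, otherwise up to 3); other genes named (the members of the 6 added lists, VIL1, MYC, CTGF, CYR61, TEAD1, TEAD3, WWTR1, KRT8, KRT18, CDH1, FLNA, ANXA1, PCSK1, INSM1, NEUROD1, SYT1, SV2A, SLC2A1 and HEYL among them) were chosen after their values were seen or as examples. A few genes that the rule names are not reported here. Promoters came from RefSeq (GRCh38.p14). The fold step was tested on simulated data. Alternatives were other pseudocounts (0.1 and 5), minimum means (100 and none), TMM scaling, centring, 3-fold and a counting interval beyond 1.5-fold. Software was R 4.3.3 with edgeR 4.0.16 and limma 3.58.1, and Python 3.11.15 with pandas 2.3.3, scipy 1.17.1 and matplotlib 3.10.9.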

Additional observations from a re-analysis of the deposited data

How the results depend on the processing

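The comparison has 1 library a side, so leaving out a library gives no value, and no batch is named in the labels. No paired analysis was possible because the deposited columns carry numbers and not the letters of the labels, and each side has 1 library. A pseudocount of 0.1, TMM scaling and centring kept all 10 counts within 1.5 times, as did a pseudocount of 5 except for genes with both libraries on 1 side of control (22 in place of 40). The counting interval was applied only to the counts of genes higher and lower in library 2, which came to 379 and 313. The other settings change how many genes can part. In the order higher in library 2, lower in library 2, library 1 above and below control, library 2 above and below control, library 2 farther, library 1 farther, control between and both on 1 side, the counts reported were 501, 380, 78, 382, 351, 558, 491, 179, 171 and 40. With a minimum mean of 100 they were 146, 233, 26, 113, 120, 319, 268, 49, 55 and 7. With no minimum they were 2706, 943, 729, 1520, 2104, 1413, 1712, 1059, 716 and 162, where a single read against 0 passes 2-fold in library 2 (1 read is worth 1.03 normalized counts) but not in library 1 (0.988). At 3-fold they were 169, 129, 19, 82, 125, 198, 152, 31, 107 and 8. Of the parting genes, 38.5% were higher in library 2 with a minimum of 100 and 74.2% with none, against 56.9% as reported. Of 34 genes (the 30 with the largest differences, TEAD4, YAP1, SYP and VIM), 0 changed sign under TMM scaling, centring or a pseudocount of 5, which moved COL1A2 from 6.39 to 4.14, SPARC from 5.79 to 3.57 and FSTL1 from 5.12 to 2.96. Of 55 list medians, 0 changed sign under those settings. With the mean of members 42 moved, by up to 1.11 (neuroendocrine genes to 0.94, synaptic genes to 1.00, keratins to -1.02), and 4 changed sign (YAP/TAZ-TEAD targets, mesenchymal markers, intestinal stem cell genes and heat shock genes).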

Other observations

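The genes that parted were not gathered on 1 chromosome. Over 23 chromosomes the median log2 difference of library 2 against library 1 lay between -0.08 and 0.02, and the share at least 2-fold higher in library 2 between 2.27% and 7.19%, the highest on chromosome 22. By GC content of the transcript, known for 97.6% of the genes compared, the median was 0.00 in the lowest class of 3, -0.02 in the middle and -0.07 in the highest, and 2.72%, 3.20% and 5.18% were at least 2-fold higher. By transcript length the medians were -0.02, -0.03 and -0.04.

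Further genes on which the libraries parted lay outside the programmes above. TERT, the catalytic subunit of telomerase, stood at 106 normalized counts in the control, 54.4 in library 1 and 243 in library 2. BCL2L1, an inhibitor of apoptosis, stood at 1812, 2316 and 842. HOXB2 and HOXB8, both of the HOXB cluster, were the 2 of 27 kept HOX genes past 2-fold. Both were lower in library 2, which is 7.41%, against 2.87% lower and 6.66% in either direction over all genes compared. HOXB8 stood at 703, 1032 and 419 and HOXB2 at 61.5, 61.3 and 21.5. Without strand, antisense reads of that cluster are not set apart. Of 19 kept interferon-stimulated genes, 3 were at least 2-fold lower in library 2 (15.8%, against 2.87% over all genes compared) and 0 higher. Among them was BST2, a surface protein that tethers viruses, at 58.6, 33.6 and 13.3. ADAM19, a membrane protease, stood at 1681, 1063 and 228, and SERPINE2, a protease inhibitor, at 681.5, 471 and 140.5. For BST2, ADAM19 and SERPINE2 both knockdown libraries lay below control, library 2 farther. L1CAM, an adhesion protein of axons, stood at 1024, 997 and 393, with library 1 beside control.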
